A study of Mus musculus with 4 samples.

Results

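Complex I (NADH:ubiquinone oxidoreductase) is the entry point of the mitochondrial respiratory chain. Its mRNAs were followed here in RNA brought down with an antibody to CPEB3, a protein that binds mRNA in neurons and controls how it is translated. The genes were taken by name, as all array probes for genes whose name starts with Ndufa, Ndufb, Ndufc, Ndufs or Ndufv. This gave 45 genes with 60 probes, of 27687 genes tested and 55681 probes on the array. The genes code for 36 subunits of complex I, 7 assembly factors (Ndufaf genes) and 2 proteins, Ndufa4 and its paralogue Ndufa4l2, that carry the name but are now placed with complex IV. All 45 genes and all 60 probes passed the filter on dim probes, and 59 probes were well above background on all 4 arrays.

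The study precipitated RNA from corticohippocampal lysate of C57BL/6 mice (an inbred laboratory strain), all of them males aged 8 weeks, and no input RNA was hybridised among the arrays used here. Lysate was kept for 3 h with beads that carried CPEB3 IgG or control IgG, and the RNA on the beads was amplified, labelled with Cy3 and read on 1-colour Agilent arrays. There were 2 arrays with CPEB3 IgG and 2 with control IgG. All mice shared strain, sex and age, and separate animals or lysates behind the replicates are not stated, so a p-value here measures the spread between these arrays, which may be technical.

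Complex I passes electrons from NADH to ubiquinone and pumps protons across the inner mitochondrial membrane. A catalytic core is made of subunits coded in the nucleus, which form the matrix arm, and of subunits coded in mitochondrial DNA, which form the membrane arm. Accessory subunits surround the core, and assembly factors help to build the complex without staying in it. In the brain, where neurons depend on oxidative metabolism, loss of complex I subunits is a known cause of Leigh syndrome.

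The probes are 60 bases long. The first 30 bases of those that the results turn on are shown, 5′ to 3′ as in the files, with any run of at least 4 T in capitals. The first 3 belong to the genes that fell most among the subunits of different arms, the next 2 to subunits that were not called, and the rest to genes whose probes or names set them apart below.
Ndufa11: ggccgagcaagcccagctaggtatggcgat
Ndufb7: gccctgaggtggccctgtagggattacccg
Ndufs8: caggagtctgaggtggacatgaagtccgca
Ndufa8: atcacagacattaacaaaaaagttaattta
Ndufb9: ctcactgttcatgcttgcaagtgagagttt
Ndufaf5, position 216: ttgaagaggaagcagaagaattgggccgcc
Ndufaf5, position 2646: cgaatgcagtagcaaaactcactacgttgt
Ndufaf8: gatgtaacatgaagatgatttaaTTTTgta
The files place these probes, on mm9, at chr17:56857241-56857300 (plus strand) for Ndufa11, chr8:86095445-86095504 (plus) for Ndufb7, chr19:3911177-3911236 (minus) for Ndufs8, chr2:35891871-35891930 (minus) for Ndufa8 and chr15:58770972-58771031 (plus) for Ndufb9. The Ndufaf5 probes lie at chr2:139996598-139996657 and chr2:140030903-140030962 (plus), and the Ndufaf8 probe at chr11:119961670-119961729 (plus). A position is the probe's start as the files list it, read here as counted along the transcript that the probe is listed under, which can differ between probes of a gene. The files do not define the number, and every result by position rests on this reading. Whether a probe lies in coding sequence or in a UTR was not analysed here.

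Complex I mRNAs were lower in the CPEB3 precipitate than in the control precipitate. Of the 45 genes, 37 fell and 0 rose (limma, adjusted p under 0.05 over all genes), with 8 not called. Of all 27687 genes tested, 20.2% were called lower and 19.2% higher. Of the 45 differences 44 were negative, and in 43 genes both CPEB3 IgG arrays lay below both control IgG arrays, which held for 41.3% of all genes. The median log2 difference over the 45 genes was −1.40, or 2.64-fold lower, beside −0.14 over all genes tested. Among the 37 genes that fell, 29 fell at least 2-fold, beside 12.7% of all genes, and 8 at least 4-fold, beside 2.59%. A level here is the log2 signal with the array's own 75th percentile set to 0. Each difference (CPEB3 IgG minus control IgG) is thus one of shares within a precipitate, not of tissue amounts, cell numbers or amounts per cell.

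The count depended on single arrays and on the scaling. It was 27 and 24 without CPEB3 IgG replicates 1 and 2 and 31 and 32 without control IgG replicates 1 and 2, with 0 complex I genes called higher in each case. The share of all genes called lower fell in the same fits, to 7.29%, 8.56%, 14.1% and 16.1%. When arrays were scaled on spike-in RNA, which moved the median of all genes by 0.65, 7 genes were still called lower and 36 of 45 differences were negative, with 2.78% of all genes called lower. All 4 arrays shared a slide and a scan, but the groups held different positions on it, so position and antibody cannot be told apart.

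**Figure D1:**
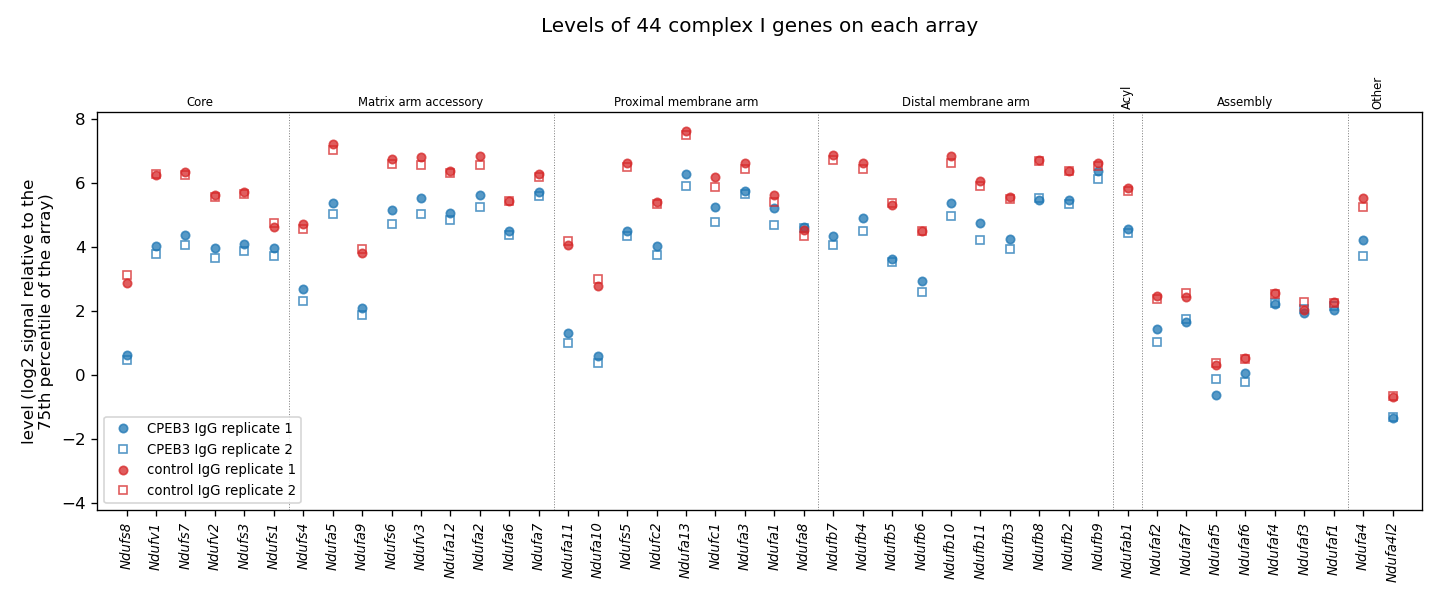
Level of 44 of the 45 complex I genes (vertical axis, log2 signal relative to the 75th percentile of the array) on the 4 arrays, grouped by role; blue symbols are CPEB3 IgG, red symbols control IgG, filled circles replicate 1 and open squares replicate 2. Red symbols lie above blue ones without overlap in 42 of these 44 genes.

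**Figure D2:**
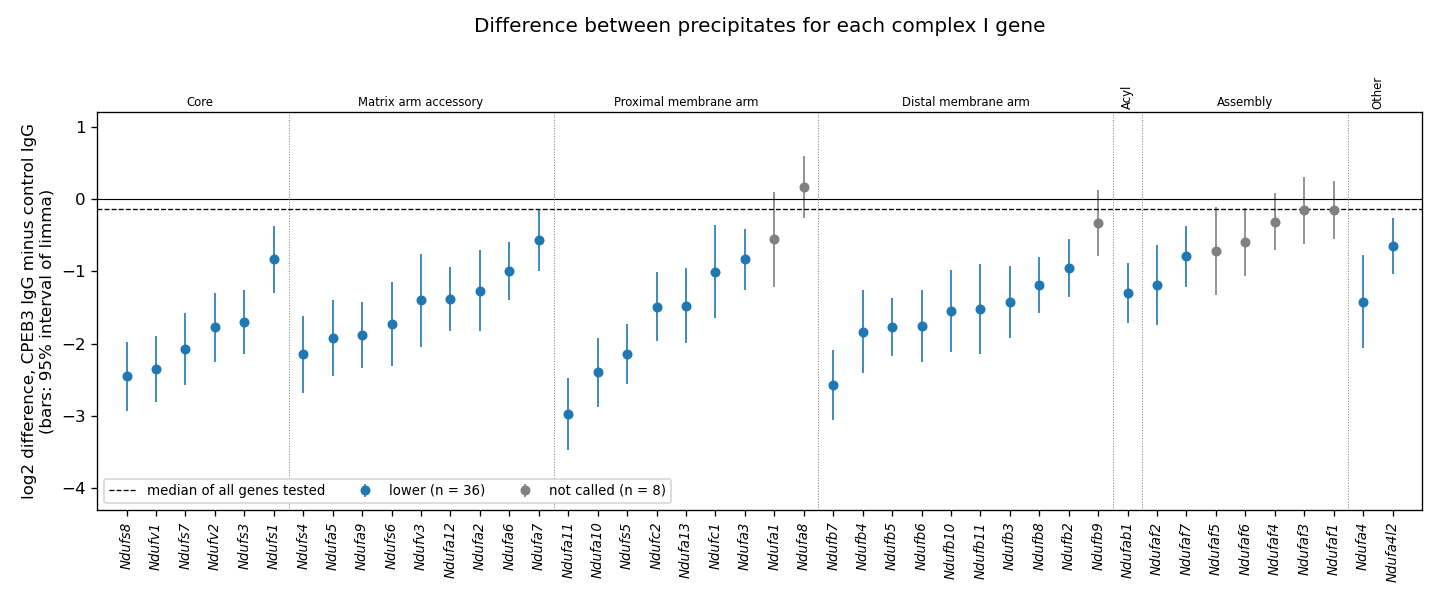
Log2 difference, CPEB3 IgG minus control IgG, for the same 44 genes with its 95% interval from limma, grouped by role; blue points were called lower (36), grey points were not called (8), and the dashed line is the median of all genes tested (−0.14). The largest falls are those of Ndufa11, Ndufb7 and Ndufs8, and most assembly factors lie nearer to 0.

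All 7 nuclear subunits of the catalytic core fell, with a median log2 difference of −1.77. Ndufs8, an iron-sulfur subunit on the path of electrons to ubiquinone, had levels (replicates 1 and 2) of 0.62 and 0.48 on the CPEB3 IgG arrays against 2.87 and 3.13 on the control arrays. The groups were far apart beside the spread within them, and the fall was 5.48-fold (95% interval 3.95 to 7.59, adjusted p = 0.00386). Ndufv1, which binds NADH and the flavin that takes up its electrons, had levels of 4.04 and 3.78 on the CPEB3 IgG arrays against 6.26 and 6.27 on the control arrays. This was a fall of 5.12-fold (3.73 to 7.01). Ndufs7, which carries the last iron-sulfur cluster before ubiquinone, fell by 2.07 ± 0.18 on the log2 scale (SE), Ndufv2 by 1.77 ± 0.18 and Ndufs3 by 1.70 ± 0.16. Ndufs1, the largest core subunit, fell least, by 0.83 ± 0.17. The call of Ndufs1 was lost without any 1 of the 4 arrays (differences −0.95 to −0.71).

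The 9 accessory subunits of the matrix arm all fell as well, with a median of −1.40. Ndufs4, whose loss in mice gives a Leigh-like brain disease, had levels of 2.69 and 2.31 on the CPEB3 IgG arrays against 4.71 and 4.58 on the control arrays, a fall of 4.43-fold (95% interval 3.06 to 6.42, adjusted p = 0.00442). Ndufa5 fell by 1.93 ± 0.19 (log2, SE), Ndufa9 by 1.88 ± 0.17 and Ndufs6, a zinc-binding subunit, by 1.73 ± 0.21. The smallest fall was that of Ndufa7, at 0.57 ± 0.16 (adjusted p = 0.0492), and its call was lost without any 1 array (−0.65 to −0.50). Ndufa6 lay between these, at −0.996 ± 0.15, and was no longer called without CPEB3 IgG replicate 1 or 2 (−1.04 to −0.95). Ndufv3 (−1.40 ± 0.24) and Ndufa2 (−1.27 ± 0.21) lost theirs without CPEB3 IgG replicate 2 alone, at −1.15 and −1.09, and Ndufa12 (−1.39 ± 0.16) kept its call in each case.

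Accessory subunits of the proximal membrane arm, the part next to the matrix arm, spanned the widest range, from −2.97 to 0.17, with 7 of 9 lower and a median of −1.47. Ndufa11, a membrane-embedded subunit, had the largest fall of all 45 genes. Its levels were 1.31 and 0.99 on the CPEB3 IgG arrays against 4.07 and 4.18 on the control arrays, and the fall was 7.84-fold (95% interval 5.56 to 11.1, adjusted p = 0.00386). It ranked 241 from the most negative of all genes tested. Ndufa10, which resembles nucleoside kinases, had levels of 0.60 and 0.38 on the CPEB3 IgG arrays against 2.78 and 2.99 on the control arrays, a fall of 5.26-fold (3.78 to 7.32).

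Ndufs5, a subunit on the intermembrane-space side, fell by 2.14 ± 0.16 (log2, SE). Ndufc2 fell by 1.49 ± 0.18, and Ndufa13, also known as GRIM-19, by 1.47 ± 0.19. Ndufc1 (−1.01 ± 0.24) and Ndufa3 (−0.83 ± 0.16) lost their calls without CPEB3 IgG replicate 1 or 2 or control IgG replicate 1, with differences over the 4 arrays of −1.25 to −0.76 and −0.92 to −0.75. Ndufa8 was the only one of the 45 genes with a positive difference. This subunit of the intermembrane-space side had levels of 4.63 and 4.60 on the CPEB3 IgG arrays against 4.54 and 4.35 on the control arrays. The CPEB3 IgG arrays lay just above the control IgG arrays, and the difference of 0.17 (95% interval −0.26 to 0.60, adjusted p = 0.446) did not pass the test. Ndufa1, a small membrane-anchored subunit, had levels of 5.23 and 4.69 on the CPEB3 IgG arrays against 5.62 and 5.41 on the control arrays. The groups did not overlap but the CPEB3 IgG replicates were far apart, and the difference was −0.55 (−1.21 to 0.10, adjusted p = 0.143).

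In the distal membrane arm, 9 of 10 accessory subunits fell, with a median of −1.53. Ndufb7, a subunit on the intermembrane-space side, had levels of 4.36 and 4.08 on the CPEB3 IgG arrays against 6.87 and 6.71 on the control arrays, a fall of 5.95-fold (95% interval 4.25 to 8.34, adjusted p = 0.00386). Ndufb4 (−1.84 ± 0.21, log2, SE), Ndufb5 (−1.77 ± 0.15) and Ndufb6 (−1.76 ± 0.18) followed. Ndufb10 (−1.55 ± 0.21), Ndufb11 (−1.52 ± 0.23) and Ndufb3 (−1.42 ± 0.18) fell by less. Ndufb8 (−1.19 ± 0.15) was not called when CPEB3 IgG replicate 1 was left out (−1.16), and Ndufb2 (−0.95 ± 0.15) without CPEB3 IgG replicate 1 (−1.02) or 2 (−0.89). Ndufb9, a subunit of the LYR-motif family, was not called. Its levels were 6.37 and 6.12 on the CPEB3 IgG arrays against 6.62 and 6.53 on the control arrays, with a difference of −0.33 (−0.79 to 0.13, adjusted p = 0.198). Ndufab1, the mitochondrial acyl carrier protein, which serves fatty acid synthesis as well as complex I, fell by 1.30 ± 0.15.

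Of the 7 assembly factors 2 fell and 5 were not called, and the median was −0.59 beside −1.50 over the 36 subunits, of which 33 fell. The difference between these groups was not tested. Ndufaf2, which acts late in assembly, fell by 1.19 ± 0.21 (log2, SE) and was not called when CPEB3 IgG replicate 2 was left out (−0.98). Ndufaf7, a mitochondrial methyltransferase, fell by 0.79 ± 0.16 and lost its call without any 1 array (−0.87 to −0.72). Ndufaf1, an early assembly factor of the membrane arm, had levels of 2.05 and 2.16 on the CPEB3 IgG arrays against 2.28 and 2.24 on the control arrays. Ndufaf3 had 1.95 and 2.05 on the CPEB3 IgG arrays against 2.03 and 2.29 on the control arrays, and its partner Ndufaf4 had 2.23 and 2.27 on the CPEB3 IgG arrays against 2.58 and 2.54 on the control arrays. The Ndufaf3 arrays overlapped between groups, and those of the other two did not. The differences were −0.15 (95% interval −0.56 to 0.25) for Ndufaf1, −0.15 (−0.62 to 0.31) for Ndufaf3 and −0.31 (−0.71 to 0.08) for Ndufaf4, none of which passed. Ndufaf6 (−0.59, adjusted p = 0.0570) lay just short of the threshold.

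Another assembly factor, Ndufaf8, is not among the 45 genes, since the files give its probe the older name 1810043H04Rik. Its levels were 3.88 and 3.85 on the CPEB3 IgG arrays against 1.51 and 0.96 on the control arrays. It was 6.18-fold higher with CPEB3 IgG (95% interval 3.96 to 9.62, limma adjusted p = 0.00431), opposite in direction to every called gene of the 45, and it stayed called in all 17 alternatives (log2 differences 2.35 to 3.28). In human cells its protein works with that of Ndufaf5. It was singled out after its value was seen, although its name was among the assembly factors listed for this comparison.

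Ndufa4 fell by 1.42 ± 0.24 (log2, SE), which was no longer called once CPEB3 IgG replicate 2 was left out (−1.18). Ndufa4l2, which is known to be induced by low oxygen, fell by 0.65 ± 0.15, and its call was lost without any 1 array (−0.67 to −0.63).

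Several genes could be read at more than 1 place. Of 60 probes, 45 were called lower and 1 higher in the fit over all probes, in which 18.9% of probes were called lower and 15.8% higher. Both CPEB3 IgG arrays were below both control arrays for 55 of the 60 probes and above for 2, beside 42.7% and 28.6% of all probes. Of the 45 genes 12 had several probes, and in 7 of these every probe fell, among them Ndufa5, Ndufab1, Ndufb2, Ndufb4, Ndufb5 and Ndufb6. The probes of Ndufb2 start at positions 355 and 380 and those of Ndufb4 at 371 and 394, so each pair overlaps and does not give separate readings. Differences between a gene's other probes and its brightest probe were tested over all 12929 such pairs on the array, of which 14.9% were called, and 2 of the 15 complex I pairs were called (adjusted p under 0.05), of which 1 is described.

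That pair is from Ndufaf5, which in human cells acts on the Ndufs7 protein before the core is complete. Its brightest probe, at position 216, had levels of −0.62 and −0.11 on the CPEB3 IgG arrays against 0.32 and 0.39 on the control arrays, a difference of −0.72 that was not called (adjusted p = 0.0769 in the fit over all probes). The probe at position 2646 had −2.63 and −2.59 on the CPEB3 IgG arrays against −3.45 and −3.41 on the control arrays. There all CPEB3 IgG values were above the control values, the difference was 0.82 ± 0.15 (SE, adjusted p = 0.0212) and the call was the only upward one among the 60 probes. The upward call was lost without any 1 of the 4 arrays. The probes differed by 1.54 (95% interval 0.85 to 2.22, adjusted p = 0.0356). A probe at position 315 was well above background on 1 array of each group and was not called (−0.76).

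In Ndufv3 the probe at position 213 gave −0.13 and those at 1164 and 1517 gave −2.08 and −1.40, and the first differed from the brightest by 1.28 (0.54 to 2.01), which just missed the threshold (adjusted p = 0.0535). In Ndufb11 a probe at position 1 gave −0.46 (adjusted p = 0.108), while the brightest, on chromosome X, and a probe that the files place on chromosome 5 gave −1.52 and −1.60. The last 2 lie on different chromosomes under 1 gene name, so that name is uncertain for the probe on chromosome 5. In Ndufa3 the brightest probe, at position 280, gave −0.83. A dim probe of Ndufa3 at position 256, with mean levels of −3.25 with CPEB3 IgG and −2.94 with control IgG, gave −0.31 and was not called (limma adjusted p = 0.313). Despite their near positions these probes do not overlap, with the dim one at chr7:3569447-3569506 and the brightest at chr7:3571695-3571754. Of the 60 probes 7 have no RefSeq accession. Among them are this dim probe, the Ndufv3 probe at position 213 and the Ndufaf5 probe at position 315. The probes of Ndufaf4 at positions 677 and 1767 gave −0.31 and −0.0096, and neither was called.

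**Figure D3:**
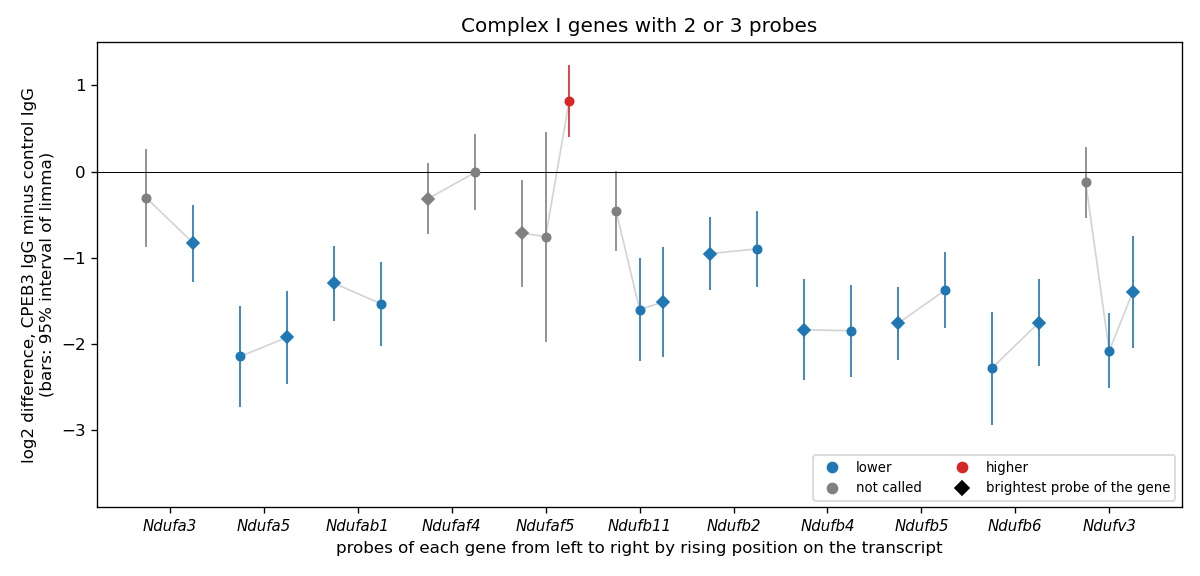
Log2 difference, CPEB3 IgG minus control IgG, with its 95% interval for every probe of 11 complex I genes with 2 or 3 probes, ordered within a gene by position on the transcript; diamonds are the brightest probe, blue was called lower, red higher and grey not called in the fit over all probes. Ndufaf5 is the gene with probes on both sides of 0 and a called probe, at 0.82.

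The probes of complex I genes have lower listed positions, in bases, than most. Their median position was 497, beside 1211 over all genes tested and 1895 over the 18140 genes with a RefSeq accession. Transcript lengths were not available, so a probe near the start cannot be told apart from a short transcript, here or in the results by position below. Over those 18140 genes the difference rose with probe position (Spearman's rho 0.35, Pearson's r 0.31) and with the percentage of T in the probe (0.31 and 0.31), as a description across genes that share the same 4 arrays. Within the 45 complex I genes rho was 0.074 for position and 0.19 for T (r 0.18 and 0.21). At positions from 300 to below 600, 20 of 22 complex I genes were lower, beside 31.5% of genes with a RefSeq accession, with medians of −1.45 and −0.43. From 600 to below 1200 it was 8 of 12, beside 28.4%, with medians of −1.49 and −0.36. Below 300 it was 4 of 5, beside 28.8%, with medians of −0.996 and −0.41, and from 1200 on it was 5 of 6, beside 15.7%, with medians of −0.84 and 0.16.

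The probes were also searched for runs of T, which in mRNA are the uridine runs that CPEB proteins are known to bind. The motif TTTTT, searched on the probe strand alone, occurred in 2 of 45 complex I probes (4.44%). It occurred in 11.5% of the probes of all genes tested and in 12.5% of those of genes with a RefSeq accession. Among RefSeq genes it was in 5.86% of those called lower, near the complex I share, and in 21.8% of those called higher. The motif TTTTAT occurred in 0 of 45, in 4.12% of all and in 4.70% of RefSeq genes. The median share of T was 26.7%, beside 28.3% over all genes and 30% over RefSeq genes. That of G and C was 45%, beside 43.3% and 41.7%. These 60-base windows are not the whole mRNA, and the part of position and sequence in the fall was not tested.

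Complex I genes also have bright probes, and the background was taken again over the 11450 of 27687 genes with a mean level above 0. A level of 0 is the 75th percentile of all probes of an array before the filter, not of the genes tested. There 24.4% were called lower and 31.9% higher, 16.1% were called and at least 2-fold lower, the CPEB3 IgG arrays lay wholly below the control arrays in 39.3% and wholly above in 46.3%, and the median difference was 0.10. The replicates of each antibody were not alike for these genes. CPEB3 IgG replicate 2 lay below replicate 1 in 37 of 45 genes, by a median of 0.25 on the log2 scale, while over all genes tested it did so in 49.7%. Control IgG replicate 2 lay below replicate 1 in 31 of 45, by a median of 0.070, while over all genes it did so in 45.9% and lay above by a median of 0.031. The median SD between replicates was 0.18 with CPEB3 IgG and 0.079 with control IgG.

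The other complexes of oxidative phosphorylation give the comparison. All 9 genes of complex III fell (median −1.24), led by the core proteins Uqcrc1 (−2.47 ± 0.17, SE) and Uqcrc2 (−1.83 ± 0.15). Of 16 ATP synthase genes 13 fell and 0 rose (median −1.35), led by Atp5d (−2.56 ± 0.16) and Atp5o (−2.22 ± 0.20). In complex IV 7 of 16 fell and 1 rose (median −0.65), with Cox5a at −2.15 ± 0.19 and Cox5b at −1.46 ± 0.18. In complex II, counted with its assembly factors, 2 of 8 fell and 4 rose (median 0.46), with Sdhb at −1.57 ± 0.20 and the assembly factor Sdhaf2 at 1.69 ± 0.16. The differences between complexes were not tested.

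Of 9 further complex I genes with other names, mostly assembly factors, 6 fell and 2 rose (median −1.17). Nubpl, which delivers iron-sulfur clusters to complex I, was at −2.0 ± 0.18, and Ecsit at −1.62 ± 0.20. Of 7 regulators of mitochondrial gene expression, 4 rose and 0 fell (median 0.92). They were led by Gabpa, a subunit of the transcription factor GABP, which drives nuclear genes of the respiratory chain, at 1.70 ± 0.20, and Tfam, which maintains mitochondrial DNA, at 1.23 ± 0.18. With the mean of each gene's probes Gabpa was at 0.66, still called. Tfam was not called when CPEB3 IgG replicate 1 was left out (1.1) or when its probe of the highest listed position was read (0.61). With spike-in scaling Cox5b, Ecsit, Nubpl, Sdhb and Uqcrc2 were no longer called.

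**Figure D4:**
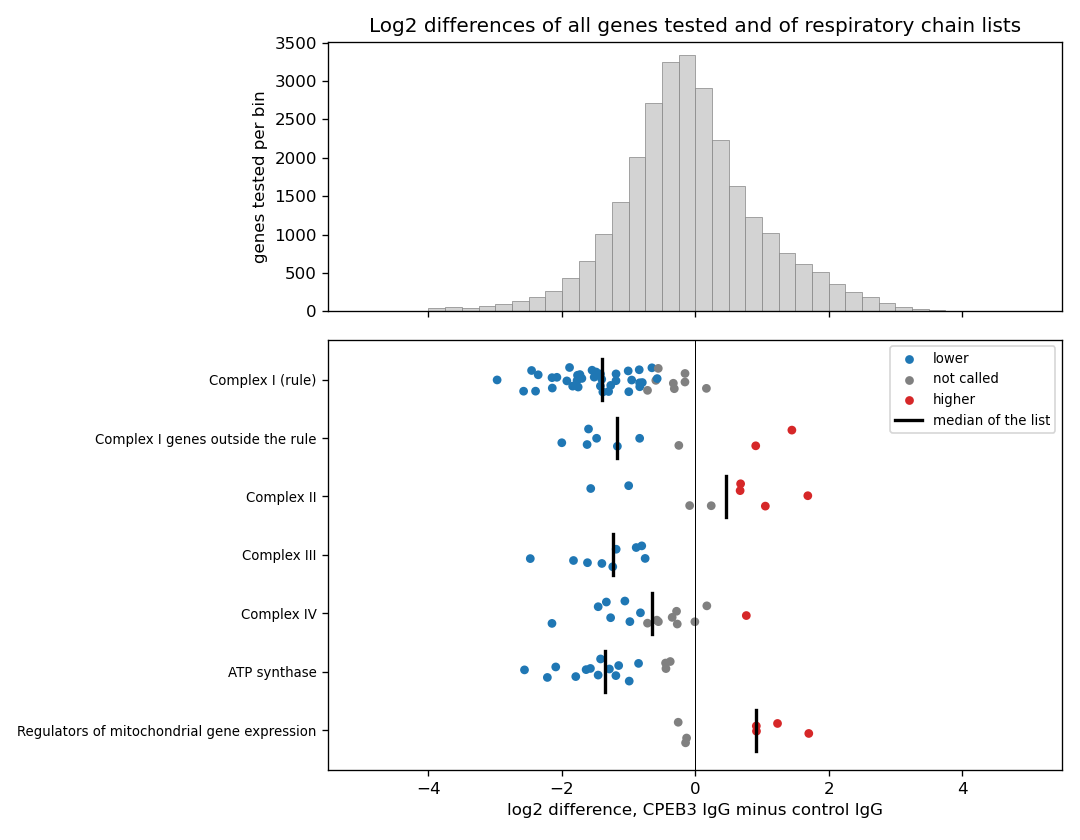
Upper panel, number of genes tested in each bin of the log2 difference, CPEB3 IgG minus control IgG, over all 27687 genes. Lower panel, each gene of the complex I rule and of 6 further lists, blue if called lower, red if called higher and grey if not called, with the list's median as a black bar; the complex I median is −1.40.

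Markers of brain cell types were set beside these results. All 6 neuronal markers were well above background on all 4 arrays, with 1 higher (Rbfox3, 0.70) and 0 lower. Of 4 astrocyte markers Slc1a3 was higher (3.16) and Aldh1l1 lower (−3.03), 0 of 4 oligodendrocyte and 0 of 3 endothelial markers were called, and of 4 microglial markers Aif1 was lower (−2.34). Of 4 markers of other organs 2 passed the filter, and Myh6 of heart muscle was lower (−0.64). Signals were also summed over each list, without scaling between arrays. Such sums are weighted to the brightest marker and do not measure cell-type content. The brightest astrocyte marker was Slc1a3 with CPEB3 IgG (levels 6.20 and 5.36) but Aldh1l1 with control IgG (4.84 and 4.50). The median log2 difference of the astrocyte list was −0.11. Summed neuronal signals were 151592 and 111995 units on the CPEB3 IgG arrays against 116643 and 114778 on the control arrays. For astrocytes the sums were 41881 and 16762 against 18918 and 14377, for oligodendrocytes 59690 and 33745 against 61897 and 46649, for microglia 9811 and 4813 against 11731 and 9882, for endothelium 3228 and 1743 against 2347 and 1865, and for other organs 484 and 393 against 430 and 561. No marker list was at 0 on any array, and their part in the fall of complex I genes was not tested. The 75th percentile of the signal ranged from 353 to 507 units, 68.0% to 73.5% of probes were well above background and no spot was saturated. Every value rests on 2 arrays per group.

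**Figure D5:**
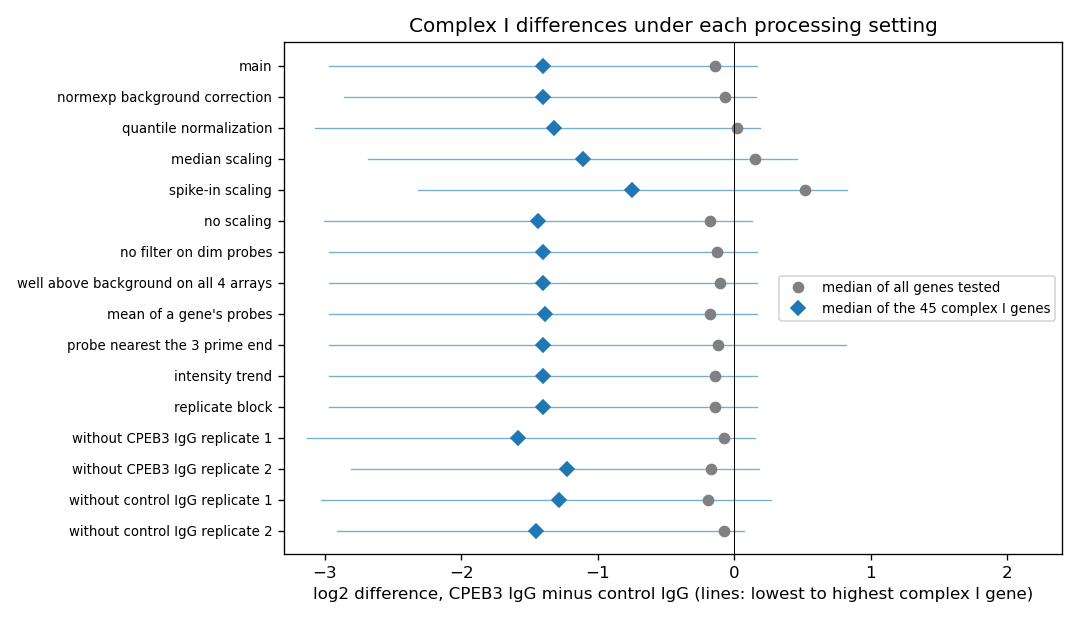
Median log2 difference, CPEB3 IgG minus control IgG, of the 45 complex I genes (blue diamonds, with a line from the lowest to the highest gene) and of all genes tested (grey circles) under each processing setting. The complex I median stays below 0 throughout, from −1.59 without CPEB3 IgG replicate 1 to −0.75 with spike-in scaling. The intensity trend and the replicate block could not move it. Median, spike-in and no scaling shift all genes alike, so the complex I median minus that of all genes stays at −1.26 in these. The setting labelled as the probe nearest the 3 prime end took each gene's probe of the highest listed position.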

How the data were processed

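Each deposited file is the scanner output of 1 array, read with Agilent Feature Extraction 10.5.1.1 as its header states. Its processed intensity had the background subtracted and was detrended within the array, with substitute values near background and no scaling between arrays, per the file headers. Mean and local background intensities, as deposited, served 1 alternative. Groups follow the sample titles.

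Control and outlier spots were left out. Log2 processed signal minus the array's 75th percentile was averaged over spots of a probe. A probe was kept if 2 or more arrays had it well above background, and the brightest stood for its gene. Symbols were updated through RefSeq accessions (GRCm38 table, for names only), while membership used the names in the files. Probe coordinates are on mm9, per the file headers. limma 3.58.1 in R 4.3.3 (lmFit, eBayes, no block) was fitted over all 27687 genes, and separately over all 40616 probes, with Benjamini-Hochberg adjustment at 0.05. Tested on simulated data with 200 changed genes, the fit recovered 0 of 200 at 2-fold, 0 of 200 at 4-fold and 72.5% at 8-fold. With 10908 genes changed by 2.33-fold it recovered 81.7%, with 250 false calls. That last run changed the same genes that these data called, so it is no independent check of the calls. Simulated noise was independent between arrays, whereas deviations of same-numbered arrays in these data correlated at 0.39. Shifts of all genes with the scaling were not simulated, so the false calls do not cover them. Intervals are 95%. Members and lists were chosen with earlier results of these data known. The comparisons between probes of a gene and the background of bright genes were added after seeing the data. The rule for named genes let every member be named, gave all array values for the 6 lowest and 6 highest differences and for members whose probes disagree, and took up to 2 called genes from each other list.

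Alternatives covered background correction, scaling, the filter, the choice of probe, the variance prior, the replicate block, thresholds and each array left out. All arrays were in 1 scan, so a scan block could not be fitted. Replicates shared 0 identical spot values. Of the members 1 enters the counts and medians but is not reported here by itself.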

Additional observations from a re-analysis of the deposited data

How the results depend on the processing

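Over the 45 complex I genes and 17 alternatives, 640 of 765 results kept their direction and their side of the threshold, 107 lost a call, 7 gained one and 11 changed sign. These are not separate checks, since many results could not differ. The settings on the choice of probe left the difference as it was for the 33 genes with 1 probe. The variance prior and the replicate block did so for every gene, and the stricter thresholds could not add a call. The 7 genes called lower in every alternative were Ndufa10, Ndufa11, Ndufb7, Ndufs4, Ndufs5, Ndufs8 and Ndufv1, and a further 15 lost the call with spike-in scaling alone. Spike-in scaling left 7 of the 37 genes lower (median difference −0.75), 9 of the 45 lower probes, and 770 genes lower over all genes. It turned the signs of Ndufaf4 (0.34), Ndufa1 (0.100), Ndufa7 (0.083), Ndufaf3 (0.50), Ndufa4l2 (0.0044), Ndufaf1 (0.50), Ndufb9 (0.33) and Ndufaf6 (0.063). Median scaling gave a median of −1.11 and 3137 lower genes over all, and turned Ndufaf3 (0.14) and Ndufaf1 (0.14). The share of higher genes among all calls was 48.7%, and 68.4% and 86.4% with median and spike-in scaling. Median, spike-in and quantile scaling moved the median of all genes by 0.29, 0.65 and 0.16. Without scaling 3110 genes were higher and 3629 lower over all. With the probe of the highest listed position taken for each gene, 1 complex I gene was higher, Ndufaf5, whose sign turned (0.82). At an adjusted p of 0.01, 23 complex I genes and 27 of their probes were lower, and 2643 genes were higher and 1794 lower over all, while 3522 genes were lower by at least 2-fold. The upward probe of Ndufaf5 was lost (0 higher) with normexp correction, without scaling, without the filter and at both stricter thresholds. With 1 array left out, 24 to 32 complex I genes and 26 to 36 of their probes were lower and 0 probes higher in each case, the median lay between −1.59 and −1.23, and over all genes 2492 to 4320 were higher and 2019 to 4466 lower. An arm with 1 array is then assumed to vary like the other. Whether same-numbered arrays share a preparation is not stated. Their deviations from the group means correlated at 0.39, and with the replicate block 38 complex I genes were lower. The causes were not tested. Of the 60 probes 59 were well above background on all 4 arrays.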
